A study of Mus musculus with 53 samples.

Results

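Distal Tbx3 sites are the places in the genome of mouse embryonic stem cells where tagged Tbx3 was found more than 20 kb from the start of any protein-coding gene. They were taken from the deposited list of Tbx3 sites (mouse build mm9) by measuring, for each site, the distance from its nearer edge to the closest protein-coding gene start of the GENCODE annotation of that build. The rule used only position, not the strength of a site, and kept 1467 of 3078 sites (47.7%). Of the rest, 592 sites lay within 1 kb of a start and 1019 lay between 1 and 20 kb, and these classes are used for comparison.

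All samples were R1 cells, a mouse embryonic stem cell line, labelled as grown with serum and LIF and without feeder cells. Sites came from Tbx3 -/- (N/N) cells that carried the biotin ligase BirA and a Flag-Biotin-Tbx3 protein, whose DNA was pulled down on streptavidin beads, and N/N cells with BirA alone served as the negative control. The protein mapped is therefore a tagged copy added to cells labelled as lacking Tbx3, and the sources used here do not say how much of it these cells made. RNA was measured in Tbx3 +/+ cells, in Tbx3 +/- cells (titled +/N), in N/N cells, and in wild-type cells with a hairpin against luciferase (shLuc) or against Tbx3 (shTbx3). There was 1 library for each of these 5 groups and 1 list of sites, so nothing below has a replicate check and no test was made. The sources used here do not say whether the targeted cells are single clones.

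Tbx3 belongs to the T-box family, whose shared DNA-binding domain recognises a short element built around the letters GGTGTGA. In mouse embryonic stem cells it is known as a part of the network that supports self-renewal, and in the embryo it acts as both a repressor and an activator of developmental genes. Transcription factors of pluripotent cells, such as Oct4, Sox2, Nanog, Esrrb and the Klf proteins, are known to bind together at enhancers, many of which lie far from the genes they control or inside introns. Which gene an enhancer acts on cannot be read from distance, so the genes named with a site here are its neighbours and not its targets.

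The windows printed here are the 200 bases around the midpoints of 9 distal sites. Larp1 and Sulf1 lie nearest the intronic sites of highest score, Spen and Pim1 nearest strong intergenic ones, and Mbip, Vmn2r-ps106 and Sox2 nearest the highest-scoring sites with the T-box letters close to the midpoint. The 2 sites in the Esrrb introns were chosen after their values were seen. Each window is read from the mm9 genome on the plus strand, 5′ to 3′, and capitals mark a match, on either strand, to one of 13 short sequences searched for, which are spelled out with their results.
Larp1 site (chr11:57784229-57784428): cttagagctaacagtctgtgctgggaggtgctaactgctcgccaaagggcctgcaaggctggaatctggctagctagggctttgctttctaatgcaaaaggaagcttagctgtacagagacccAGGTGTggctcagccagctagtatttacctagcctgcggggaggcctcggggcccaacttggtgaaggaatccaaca
Sulf1 site (chr1:12734865-12735064): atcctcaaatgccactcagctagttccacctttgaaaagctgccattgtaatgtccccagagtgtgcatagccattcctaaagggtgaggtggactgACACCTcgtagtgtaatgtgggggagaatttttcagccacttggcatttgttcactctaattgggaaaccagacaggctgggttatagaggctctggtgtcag
Spen site (chr4:141121406-141121605): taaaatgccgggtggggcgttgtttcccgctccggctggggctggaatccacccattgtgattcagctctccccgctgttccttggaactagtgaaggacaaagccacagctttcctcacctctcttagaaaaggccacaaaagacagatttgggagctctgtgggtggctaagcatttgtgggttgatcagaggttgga
Pim1 site (chr17:29588179-29588378): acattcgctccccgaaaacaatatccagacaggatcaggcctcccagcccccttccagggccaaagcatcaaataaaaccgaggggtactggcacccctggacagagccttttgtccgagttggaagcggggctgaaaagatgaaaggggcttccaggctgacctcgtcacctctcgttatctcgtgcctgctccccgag
Mbip site (chr12:57399506-57399705): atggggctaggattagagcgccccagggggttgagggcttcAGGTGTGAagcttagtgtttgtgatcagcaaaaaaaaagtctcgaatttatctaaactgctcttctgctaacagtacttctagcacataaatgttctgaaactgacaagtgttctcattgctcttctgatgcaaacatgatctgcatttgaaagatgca
Vmn2r-ps106 site (chr13:66812043-66812242): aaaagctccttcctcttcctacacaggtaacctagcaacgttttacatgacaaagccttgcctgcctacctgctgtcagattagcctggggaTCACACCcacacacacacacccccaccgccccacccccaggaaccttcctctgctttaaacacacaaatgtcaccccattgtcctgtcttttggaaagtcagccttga
Sox2 site (chr3:34660194-34660393): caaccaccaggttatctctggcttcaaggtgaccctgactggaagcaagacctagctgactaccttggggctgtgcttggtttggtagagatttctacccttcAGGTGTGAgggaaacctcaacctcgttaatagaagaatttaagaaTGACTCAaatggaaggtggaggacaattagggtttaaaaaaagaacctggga
Esrrb site, stronger (chr12:87839933-87840132): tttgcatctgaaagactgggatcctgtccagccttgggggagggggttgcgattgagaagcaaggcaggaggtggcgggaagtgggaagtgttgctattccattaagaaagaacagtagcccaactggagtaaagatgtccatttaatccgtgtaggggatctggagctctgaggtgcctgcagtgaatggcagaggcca
Esrrb site, weaker (chr12:87842843-87843042): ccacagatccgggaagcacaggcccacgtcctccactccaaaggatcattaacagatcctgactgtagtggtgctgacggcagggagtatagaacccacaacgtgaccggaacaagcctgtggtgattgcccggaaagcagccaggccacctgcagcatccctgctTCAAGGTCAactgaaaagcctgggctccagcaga

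The Mbip, Vmn2r-ps106 and Sox2 windows hold the T-box core GGTGTGA, on the minus strand in the Vmn2r-ps106 window, where it reads TCACACC. In the Mbip and Sox2 windows the core is preceded by an A, so that it overlaps the shorter T-box letters AGGTGT. The Larp1 and Sulf1 windows, around the distal sites of highest and next highest score, hold AGGTGT alone, again on the minus strand in the Sulf1 window (ACACCT). No searched sequence is present in the Spen and Pim1 windows, although their scores of 654 and 574 are among the highest. Of the Esrrb windows, that of the stronger site (507) holds no searched sequence either, and in that of the weaker one (460) the capitals mark TCAAGGTCA, the element that the Esrrb protein itself is known to bind.

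Distal sites scored like those at 1 to 20 kb from a start and higher than those at starts. Scores, which are the authors' own values per site with an unstated scale, ran from 50.03 to 791 in distal sites, with a median of 78.8 and quartiles of 61.2 and 122. The median was 79.2 at 1 to 20 kb and 69.7 within 1 kb of a start. A score of 100 or more was reached by 521 distal sites (35.5%), against 35.2% of sites at 1 to 20 kb and 23.6% of those within 1 kb. Among the 50 sites of the whole list with a score of 400 or more, 23 were distal, and so were 48 of the 100 highest. Both counts are near the 47.7% that distal sites make up of the list. The site with the highest score of all was distal. Distal sites were also the narrowest class, with a median width of 496 bp against 520 and 568 bp in the nearer classes.

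**Figure D1:**
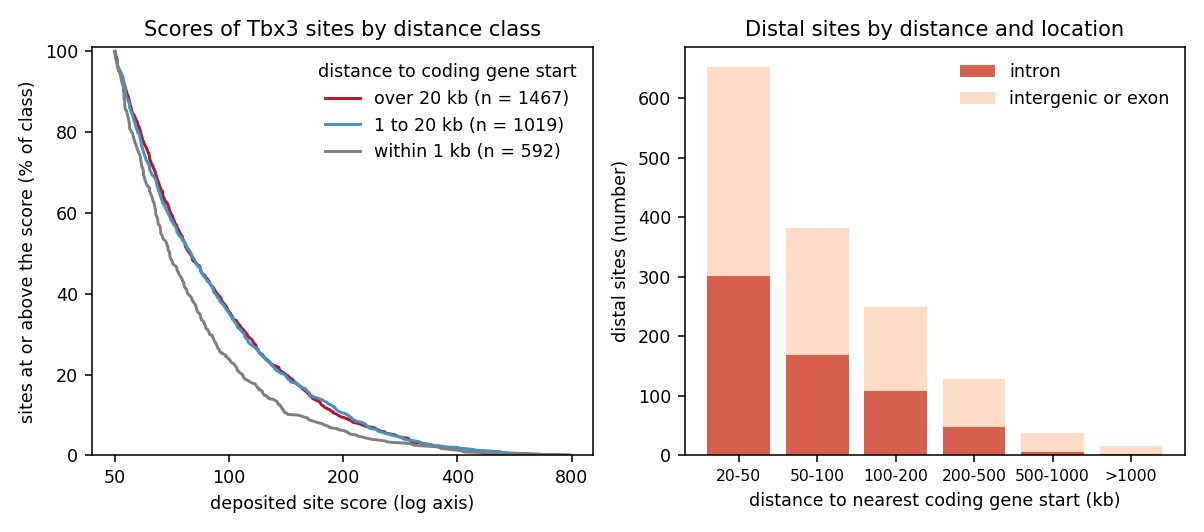
Left, the share of sites of each distance class (vertical axis, percent) at or above a given deposited score (horizontal axis, logarithmic); the curves of the 1467 distal and 1019 middle-distance sites lie on each other and above that of the 592 sites within 1 kb of a start. Right, number of distal sites by distance to the nearest coding gene start in kb, divided into intronic and other sites; the first band, from 20 to 50 kb, holds 653 sites.

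The highest score, 791, belonged to a site 37.9 kb upstream of Larp1, which encodes an RNA-binding protein that acts on mRNAs of the translation machinery. It lay in an intron of Gm12249, a noncoding transcript. A site 26.0 kb downstream of the start of Sulf1, in that gene's own intron, scored 706; Sulf1 encodes a sulfatase that trims heparan sulfate and so affects growth factor signalling. Next came an intronic site of Nedd4l (679), and then the intergenic sites 26.6 kb upstream of Spen (654), a nuclear corepressor of the Notch pathway, and 90.8 kb downstream of Ly86 (622). A site 39.0 kb upstream of Pim1 scored 574; Pim1 is a kinase and a known target of LIF and Stat3 signalling. Sites next to Mbip (550), Galnt7 (536), Vmn2r-ps106 (536), Slc35f4 (523), Wdr7 (520) and Rpl12-ps1 (518) completed the 12 highest. Of the genes named with these 12 sites, Ly86, Vmn2r-ps106, Slc35f4 and Rpl12-ps1 were not the nearest expressed genes, which were Rreb1, Uqcrb, Naa30 and Tmem131. The site in Nedd4l was also closer to another coding gene start, that of F730048M01Rik, while Nedd4l was its nearest expressed gene. Introns of Esrrb carried 2 sites, of 507 and 460, at 138 and 140.4 kb from the annotated gene start.

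Close to starts, Tbx3 sites were denser than far from them. Positions more than 20 kb from a coding gene start made up 75.1% of the sequenced genome on the chromosomes that carried sites, and held 76.4 sites per 100 Mb, against 253 per 100 Mb within 20 kb. Distances of distal sites to a start had a median of 57.6 kb and quartiles of 33.2 and 115 kb. The band from 20 to 50 kb held 653 sites (44.5%), that from 50 to 100 kb 382 sites, and 38 and 16 sites lay at 500 to 1000 kb and farther. Scores barely varied with distance, with medians of 77.2, 79.9, 79.9 and 79.9 in the bands from 20 to 50, 50 to 100, 100 to 200 and 200 to 500 kb, and 75.7 and 70.3 in the last bands. The farthest was a site of score 58.1 at 1984 kb from Cntnap5b. By chromosome, counted per 100 Mb of its whole length and so not comparable with the 76.4 above, distal sites were fewest on X (12) and 7 (29.5) and most frequent on 19 (89.7).

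At the limit itself the sites just inside were those at 19906 bp from Tex2 (score 65.3), 19973 bp from Erlin1 (70.2) and 19989 bp from Trim71 (400.5). Just outside were sites at 20006 bp from Gjb1 (210), 20051 bp from Cxcl17 (71.7) and 20065 bp from Alg13 (80.9). These few sites, with scores from 65.3 to 400.5, cannot show whether scores step at the limit.

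Introns held 631 distal sites (43.0%) and exons 41 (2.79%), while 795 (54.2%) lay between genes of any kind. Of the genome beyond 20 kb, 35.3% is intron, 1.85% exon and 62.8% intergenic, so the share in introns was above the share of sequence. Nearly all intronic sites, 584, lay in a protein-coding host, in 466 different genes with a median length of 143 kb, against 15.4 kb over all coding genes. The rule itself makes these hosts long, since only a coding gene longer than 20 kb can hold such a site. In 373 of the 584 cases (63.9%) the host was also the gene with the nearest start. Etl4 held 9 sites, and Ppp1r9a, Myo10 and Gm20388 5 each. Of the intergenic sites 60.5% were upstream of the nearest coding gene, and of the intronic ones 24.7%. This contrast is largely set by definition, since the 373 sites inside their nearest coding gene can only be downstream of its start. The share of sequence upstream was not computed. Scores of intronic and intergenic sites had medians of 76.7 and 79.9.

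The difference between the share of sites and of sequence in introns was smaller under another definition of a start. Genes often have further promoters inside their bodies, and 280 of the distal sites (19.1%) lay within 20 kb of the start of another annotated transcript of a coding gene, 60 of them within 1 kb. For 239 of the 280 that transcript belonged to the host gene, and 84.6% of the 280 were intronic. Among the 1187 sites more than 20 kb from every coding transcript start, 33.2% were intronic, beside 29.9% of the genome under the same rule. Their median score was 79.5, and that of the other 280 was 76.6. Examples of the 280 are the Esrrb sites, 4975 and 1980 bp from an Esrrb transcript start, and a site of score 461 in an intron of Fgfr2, 317 bp from a transcript start of this FGF receptor gene. The sites described near Sox2, Spen, Pim1 and Otx2 were beyond 20 kb by either rule.

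A small number of distal sites, 36 (2.45%), were within 1 kb of a start of a noncoding gene or pseudogene, among them 11 at lincRNA starts and 11 at processed transcripts. The one of highest score, 396, covered the start of the lincRNA Gm17337, and its nearest expressed coding gene was Mycn, 153 kb away. Another, of score 127, lay 659 bp from the start of the lincRNA Gm16880 in a group of sites near Zfp281.

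Most distal sites stood alone. When sites with 10 kb or less between them were joined, 211 sites (14.4%) fell into 96 clusters, 81 of 2 sites, 11 of 3 and 4 of 4, and 1256 sites were single. Sites in clusters had a median score of 88.9 and single ones of 77.1. The cluster near Spen had 4 sites over 7.15 kb with scores of 654, 226, 83.9 and 60.6, all intergenic. A second group of 4, with scores of 357, 91.2, 248 and 63.2, lay between the coding genes AU018091 and Nlrp12, from 16999 to 4536 bp upstream of Mir290, the first member of a microRNA cluster known for its activity in mouse embryonic stem cells. These sites, at chr7:3201114-3214091, count as distal only because a microRNA gene is not a protein-coding one. Weaker groups of 4 lay in introns of Myo10 (77.5 to 165) and Etv5 (72.9 to 109), and both sat near internal transcript starts of those genes, at 0 to 3474 bp and 828 to 9764 bp.

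The cluster downstream of Sox2 had 3 sites over 5.43 kb, at chr3:34655235-34660666, with scores of 302, 110 and 439. They lay 106308 to 110994 bp from the Sox2 start with no other annotated gene start between, and a weaker site of score 53.8 lay 84945 bp from it. As background, this stretch is known as the Sox2 control region, a distal enhancer on which Sox2 transcription in embryonic stem cells depends. Its strongest site is the one whose window, printed above, holds the T-box core. Otx2, a regulator of the exit from naive pluripotency, had 3 sites 41691 to 50277 bp upstream with scores of 321, 66.8 and 93.5. Further groups of 3 lay near Sec14l1, Stoml1, Scd2, Med13l, Klf9, Zfp281, Lrig1, Qk and Tbl1xr1.

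**Figure D2:**
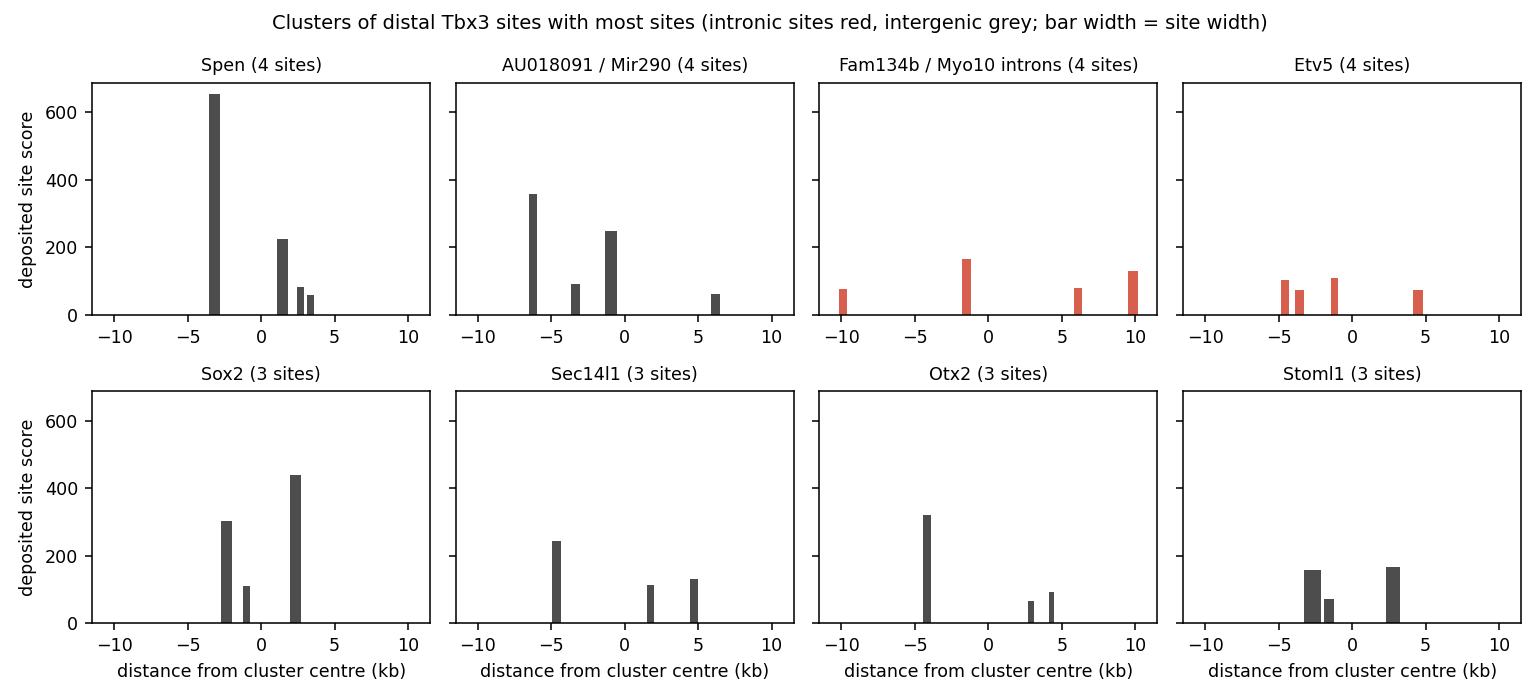
Deposited scores (vertical axis) of the sites in the 8 distal clusters with the most sites, by distance from the cluster centre in kb (horizontal axis), with bars as wide as the sites. One site dominates the Spen and Otx2 clusters, at 654 and 321, whereas the Etv5 sites are all between 72.9 and 109.

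Short sequence elements were counted in windows of 500 bp on the site midpoints, on both strands, and beside them in flanks 2 kb away and in all 500 bp tiles of the genome beyond 20 kb. The T-box core GGTGTGA was in 205 distal windows (14%), against 6.48% of flanks and 6.30% of tiles. It was in 13.2% of sites at 1 to 20 kb and 8.61% of those within 1 kb. The shorter AGGTGT, which overlaps the core where an A precedes it, was in 43.1% of distal windows, 26.6% of flanks and 22.5% of tiles. The share with the core was 12.8% for scores under 100, 16.1% for 100 or more and 21.9% for 200 or more. Intronic and intergenic sites were alike in this, at 13.9% and 14.3%, and so were the sites far from and near to an internal transcript start, at 14.2% and 13.2%.

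Letters known for other factors of the pluripotency network were also more common in distal windows than beside them. The octamer ATGCAAAT, the element of Oct4 and its relatives, was in 9.54% of windows and 3.68% of flanks, with 4.70% of tiles. CATTGTT, a Sox element, was in 13.7% of windows, 7.77% of flanks and 10.3% of tiles, so that it stood out less against the genome. TCAAGGTCA of Esrrb was in 4.91%, 1.30% and 0.972%, and the Klf letters GGGTGTGG, which share GGTGTG with the T-box core, were in 9.07%, 3.82% and 2.68%. Median scores were 95.5 with the octamer and 77.5 without, 86.2 and 77.5 for the T-box core and 80.7 and 78.1 for Sox letters, but 76.7 and 78.9 for Esrrb and 73.7 and 79.2 for Klf letters. Octamer and Sox letters were together in 24 sites (1.64%), and T-box core and octamer in 14 (0.954%). Pairs were not counted in flanks or tiles, so these counts cannot show whether the letters tend to occur together. Other elements were nearer to their flanks and tiles: TTCCNGGAA of Stat proteins (1.64%, 1.64% and 1.25%), TGACTCA of AP-1 (9.68%, 8.59% and 7.56%) and CATTCCA of Tead proteins (10.4%, 8.11% and 8.14%). CTTTGAT of Tcf proteins (9.0%, 7.57% and 10.5%) was below its tiles, and AGATAAG of GATA factors (5.32%, 6.71% and 7.49%) below both. GCGCCCCCT, from the CTCF element, was in 4 distal windows (0.273%), 0.0341% of flanks and 0.0622% of tiles, shares that rest on few windows. None of the T-box core, octamer, Sox, Esrrb, Klf and Stat letters was in 835 sites (56.9%). The share of flanks or tiles without them was not counted.

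E-box letters CACGTG, known from Myc and related factors, separated the classes. They were in 5.79% of distal windows, 6.75% of their flanks and 4.50% of tiles, but in 15.9% of windows within 1 kb of a start. The base composition of the classes also differed: the median G+C share was 47.8% in distal windows, 44.4% in their flanks and 62.8% within 1 kb of a start, with a median of 6 CpG dinucleotides per distal window and 38 near starts. The part of base composition in these shares was not tested.

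The elements that were more common in distal windows were concentrated at the midpoint. Within 100 bp of it, T-box core matches stood at 4.94 per 100 sites per 100 bp, against 1.66 at 500 to 1000 bp, a ratio of 2.98. The ratio was 4.73 for the octamer, 3.54 for Esrrb, 2.63 for Klf and 2.40 for Sox letters, while it was 0.939 for GATA and 0.587 for the E-box. At 1 to 20 kb from a start the corresponding ratio was 3.25 for the T-box core and 4.21 for the octamer, and within 1 kb of a start they were 1.35 and 2.86.

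**Figure D3:**
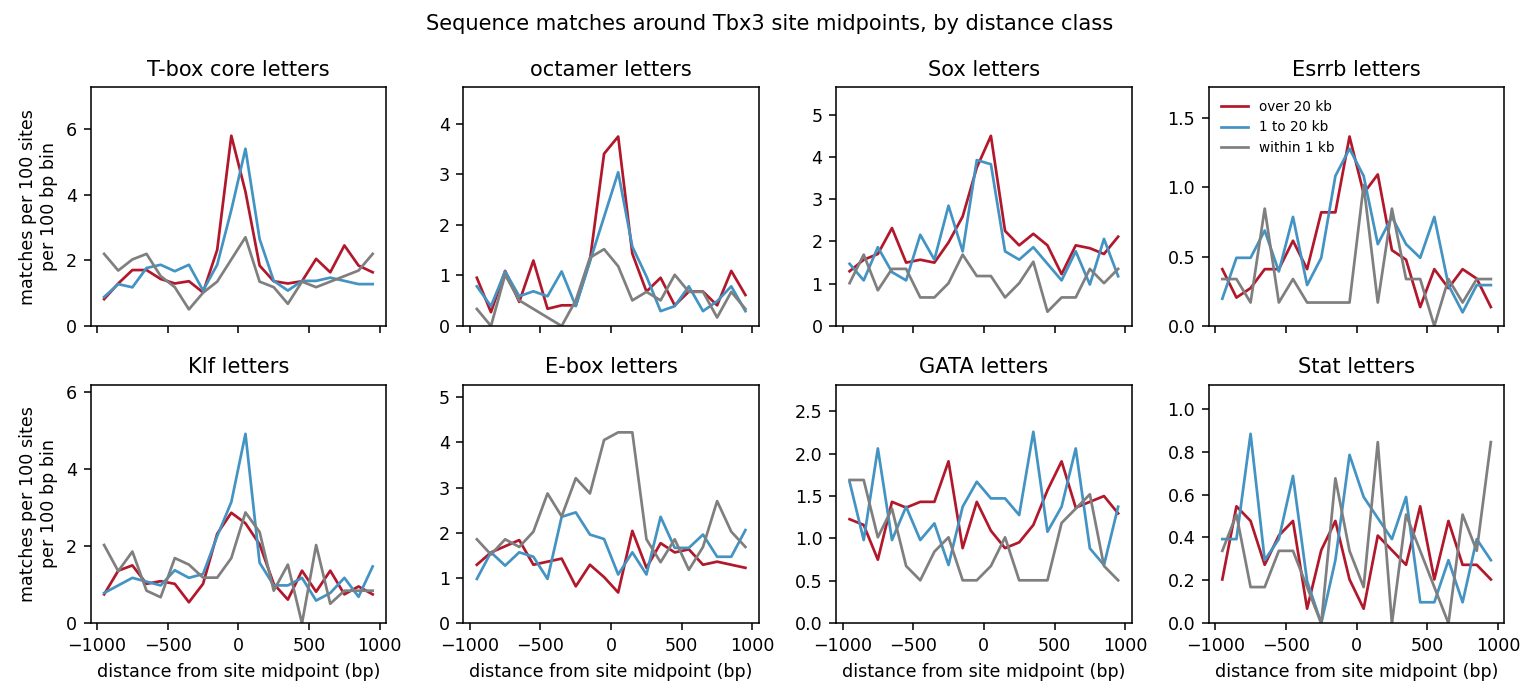
Matches per 100 sites in bins of 100 bp (vertical axes, each panel with its own scale) against distance from the site midpoint in bp (horizontal axis), for 8 searched elements and the 3 distance classes. T-box core, octamer, Sox, Esrrb and Klf letters peak at the midpoint of distal sites, whereas E-box letters peak only in sites within 1 kb of a start.

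The genes around distal sites were less often expressed than those around the other sites. RNA levels are given as FPKM, which divides the fragments of a gene by its transcript length and by the size of the library, and a coding gene counted as expressed where any of the 5 libraries had it at 1 FPKM or more. The nearest coding gene was expressed for 67.3% of distal sites, 76.8% of sites at 1 to 20 kb and 90.2% within 1 kb. Counted per gene and not per site, 11086 of the 22380 annotated coding genes were expressed. The nearest coding gene had a listed RNA value for 67.4% of distal sites, so nearly all those not expressed were genes without a listed value. Measured to the nearest expressed gene, the median distance of distal sites was 76.4 kb, and 602 sites (41.0%) were over 100 kb away. The 1467 distal sites together named 1071 different genes, which are 9.66% of the 11086 expressed coding genes. Of the 1071, 800 had 1 distal site, 192 had 2 and 79 had 3 or more, and 182 also had a site within 20 kb of their start. Their levels were those of other expressed genes, with a median in +/+ cells of 9.94 FPKM against 9.72 FPKM.

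Genes with distal sites stood apart in spacing: the median distance to the next expressed start was 105 kb for them and 25.7 kb for the other expressed genes. Because a gene with much empty sequence around it is more easily the nearest one, counts per gene or per list below carry this difference. The gene with most sites was Arhgap21, a GTPase-activating protein, with 8 sites that all lay in introns of its neighbour Etl4. Tbl1xr1, a corepressor subunit, also had 8 (50.8 to 88.8), and Med13l, a subunit of the Mediator kinase module, had 6, including one of 443 at 495 kb. Tgif1, a repressor of TGF-beta signalling, and Qk, an RNA-binding protein, had 6 each.

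The 12 lists of stem cell and developmental pathways were chosen with earlier results of these data known. Their genes were next to distal sites more often than expressed genes in general, which describes the chosen genes alone. Of 149 expressed list genes, 51 (34.2%) were the nearest expressed gene of a distal site, beside 9.66% of all expressed genes. Their spacing was also wider, at a median of 78.1 kb against 28.9 kb over all expressed genes. In the 25% of expressed genes with the widest spacing, 23.4% had a distal site, and list genes had one in 42 of 76 cases; from the 25% with the narrowest spacing upwards, the lower groups had 3.21%, 3.46% and 8.59%, and 0 of 10, 5 of 31 and 4 of 32 list genes.

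Among core pluripotency genes 5 of 16 expressed members had a distal site, among them Zfp281, Sox2, Sall4 and Lin28b. Sox2, a partner of Oct4, had 4 sites and stood at 245, 213, 202, 212 and 247 FPKM in +/+, +/N, N/N, shLuc and shTbx3. Zfp281, a zinc finger regulator, had 5 sites (66 to 127) and levels of 14.8, 12.9, 12, 18 and 18.3 FPKM in the same order. Both genes were thus at similar levels in all 5 libraries. Sall4, with 1 site of 105, was at 83.4, 63.9 and 61.1 FPKM in the genotype series and 31.8 and 39.1 FPKM in the hairpin pair.

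Naive pluripotency genes had distal sites in 9 of 17 cases, here Klf4, Tbx3, Esrrb, Prdm14, Klf5, Nr0b1, Tet2, Tcl1 and Gbx2. Esrrb, an orphan nuclear receptor, was at 151, 128, 121, 107 and 136 FPKM in +/+, +/N, N/N, shLuc and shTbx3. Klf4, with 3 sites 54774 to 67663 bp downstream (188, 51.7 and 65.4), was at 88.9, 49.5 and 36.5 FPKM in +/+, +/N and N/N, and at 45.2 and 68.4 FPKM in shLuc and shTbx3. Its level was thus lower with fewer intact Tbx3 alleles and higher, not lower, with the hairpin against Tbx3. Prdm14, a repressor of differentiation genes, had sites of 145 and 173, and levels of 9.41, 6.78 and 6.32 FPKM in the genotype series and 9.48 and 8.98 FPKM in the hairpin pair. The median log2 difference of the 9 genes, Tbx3 included, was -0.71 in N/N against +/+ and 0.35 in shTbx3 against shLuc.

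Tbx3 itself was a neighbour of 3 distal sites, one 90303 bp upstream (181) and a pair 35815 and 39078 bp downstream (56.3 and 84.5). Its RNA was at 44.4, 22.5 and 15.1 FPKM in +/+, +/N and N/N, so the N/N library still held Tbx3 RNA, with 13.8 and 5.09 FPKM in the shLuc and shTbx3 libraries. The gene Dppa3, the gene the study pairs with Tbx3, was the nearest expressed gene of no distal site. Its levels were 5.32, 8.95, 24.7, 29.1 and 51.3 FPKM.

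Formative and primed pluripotency genes had distal sites in 6 of 14 cases. Otx2 was at 25.9, 33.4 and 37.5 FPKM in +/+, +/N and N/N and at 29.4 and 11.2 FPKM in shLuc and shTbx3, so that N/N was the highest of the genotype series and shTbx3 the lowest of all libraries. Etv5, an ETS factor downstream of FGF signalling, was between 39.8 FPKM (+/+) and 64.6 FPKM (shTbx3). Dnmt3a, a DNA methyltransferase with 2 sites (152 and 69.1) in introns of the neighbouring Dtnb, was at 16.6, 15.2, 15, 15.2 and 10.3 FPKM. Sox4, with sites of 100.04 and 68.6, was at 10.6, 9.16 and 5.00 FPKM in the genotype series and 9.69 and 18.3 FPKM in the hairpin pair.

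Of the primitive streak and mesoderm genes, 5 of the 9 expressed members had a distal site (Eomes, Sp5, T, Bmp4 and Wnt3), but T and Wnt3 counted as expressed only through the shTbx3 library, so that their place here and their high level there follow from the filter. Over all 1071 genes with a distal site 4 passed through shTbx3 alone, and 992 passed in all 5 libraries. T, the founding T-box gene and a marker of early mesoderm, was at 0.0658, 0.438 and 0.423 FPKM in +/+, +/N and N/N, at 0.605 FPKM in shLuc and at 35.5 FPKM in shTbx3. Its distal site, of score 219, lay 768 kb from it and closer to 1700010I14Rik, which was not expressed. T also had 1 site within 20 kb of its start, outside the distal class. Sp5, a target of Wnt signalling whose site (268) was in an intron of Myo3b at 196 kb, was at 0.897, 2.18, 2.08, 0.740 and 26.0 FPKM. Sp5, Eomes and Bmp4, which reached 1 FPKM in other libraries too, were also highest in shTbx3. Within the hairpin pair, however, Sp5 reached 1 FPKM in shTbx3 alone.

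Eomes, a T-box gene of the primitive streak, had sites of 138 and 144 upstream and levels of 2.44, 1.99, 1.90, 1.25 and 4.68 FPKM. Bmp4, a mesoderm-inducing ligand with a site of 67.6, was at 15.4, 13.2, 14.8, 10.1 and 30.5 FPKM. Wnt3, a ligand that acts at the start of gastrulation, had an intronic site of 52 and was at 0.153, 0.294, 0.433, 0.153 and 5.36 FPKM.

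LIF and Stat3 pathway genes had the largest share, 9 of 15, among lists of more than 4 expressed genes (Pim1, Myc, Klf4, Il6st, Lif, Jak2, Lifr, Fos and Ptpn11), with 17 sites. Pim1 had 4, and was at 60.8, 81.3 and 96.0 FPKM in +/+, +/N and N/N, then 31.7 and 64.8 FPKM in shLuc and shTbx3. Myc had sites 25321 and 27050 bp downstream (84.9 and 102) and one in the lincRNA Pvt1 (209). Its levels were 9.35, 5.74, 3.99, 5.21 and 13.99 FPKM, lowest in N/N and highest in shTbx3. Lif, which encodes the cytokine supplied in the medium, had a site of 155 and was between 0.946 FPKM (shLuc) and 3.94 FPKM (N/N).

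In the Nodal and activin list 3 of 15 genes had distal sites (Smad7, Inhbb and Smad3). Inhbb, a subunit of activin B, had sites of 302 and 60.7 and levels of 11.2, 4.2, 2.96, 7.39 and 2.18 FPKM. It was lower in both libraries with less Tbx3 than in their controls. Smad7, an inhibitor of the pathway, had 4 sites (50.7 to 111) and was at 35.3, 23.9 and 19.4 FPKM in the genotype series and 9.37 and 11.8 FPKM in the hairpin pair. For BMP and Id genes the count was 4 of 13, for Wnt genes 7 of 15, for the Myc family 4 of 9 and for endoderm genes 4 of 14. It was 3 of 22 for Polycomb, trithorax and DNA methylation genes, which was the nearest of the 12 lists to the 9.66% of all expressed genes.

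Mycn, a Myc family gene with sites of 396 and 108, was at 116, 114 and 107 FPKM in the genotype series and 71.1 and 156 FPKM in the hairpin pair. Of the endoderm genes, Dab2, an endocytic adaptor with sites 283 to 308 kb upstream, was at 4.38, 1.24, 0.606, 1.57 and 0.857 FPKM. Lrp2, an endocytic receptor, had an intronic site of 156 and was at 4.29, 1.36, 1.23, 2.44 and 3.82 FPKM. The T-box list had only 4 expressed genes, Tbx3, Eomes, T and Mga, and each was the nearest expressed gene of a distal site.

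**Figure D4:**
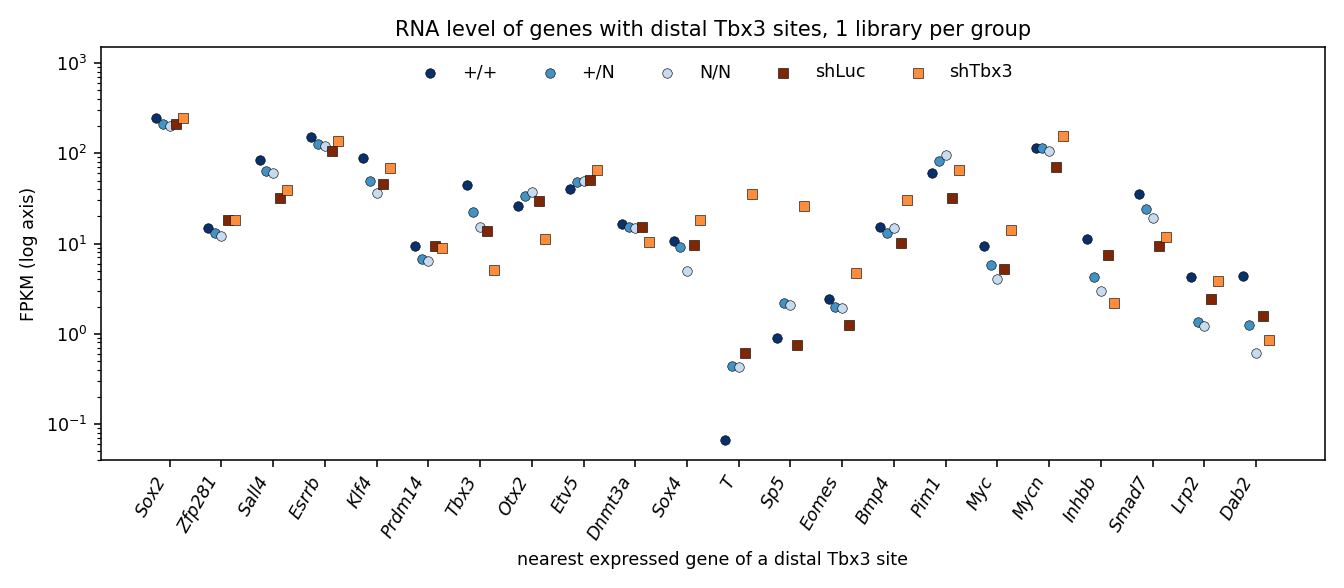
RNA level in FPKM (vertical axis, logarithmic) of 22 genes with distal sites, 1 point per library, with circles for the genotype series and squares for the hairpin pair. T and Sp5 are at 35.5 and 26.0 FPKM in shTbx3 and below 2.2 FPKM in every other library, while Sox2 and Esrrb vary little.

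Differences between libraries were then counted over all genes with a distal site, as the log2 of the ratio of FPKM with 1 added to each value, over genes with 1 FPKM or more in one of the libraries compared. In N/N against +/+, 31 of 1060 genes with a distal site (2.92%) were lower by 2-fold or more, and 1.4% of all 10950 coding genes compared were. Higher by 2-fold or more were 10 (0.943%), and 0.977% of all. In shTbx3 against shLuc, 44 of 1061 (4.15%) were higher, with 2.69% of all genes, and 10 (0.943%) were lower, with 0.857% of all. The 44 include T and Wnt3, which counted as expressed through shTbx3 alone. They also include Sp5 and Gjb1, which within this pair reached 1 FPKM only in shTbx3. The medians over the genes with a distal site, -0.05 and 0.10, were close to those of all genes, -0.03 and 0.14. The excess therefore concerns few genes at the edge of the distribution, and with 1 library per group it has no error.

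Spacing moved with these counts. In the 25% of expressed genes with the widest spacing, 3.59% of genes with a distal site (23 of 640) and 1.68% of genes without one (35 of 2081) showed the lower level in N/N, and among all other expressed genes the values were 1.90% (8 of 420) and 1.11% (87 of 7809). For genes higher in shTbx3 the 25% of widest spacing gave 4.52% (29 of 642) and 3.17% (66 of 2085), and the others 3.58% and 2.37%. Genes that were nearest to a site within 20 kb of a coding start and to no distal site had the lower N/N level in 1.32% of 1140 cases and the higher shTbx3 level in 2.73% of 1134, near the shares over all genes. Without the sites near an internal transcript start, the lower genes in N/N numbered 31 (3.54%) and the higher ones in shTbx3 39 (4.46%).

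Markers of other cells differed between the same libraries. All 10 markers of embryonic stem cells were at 17.6 FPKM or more in every library. The summed level of 8 fibroblast markers, of which 6 are listed, ran 41.1, 96.8 and 107 FPKM over +/+, +/N and N/N, and 6.75 and 15.4 over shLuc and shTbx3. That of 5 trophectoderm markers, of which Cdx2 and Elf5 are not listed, was 334 FPKM in shTbx3 and 41.2 to 63 in the others. For 5 B-cell and antigen-presenting cell markers it was 86.4 FPKM in shLuc and 6.71 to 10.5 elsewhere. For 6 primitive endoderm markers, of which Sox7 and Foxa2 are not listed, it was 12.9 FPKM in +/+ and 2.06 to 4.38 elsewhere, and 2 of these markers, Dab2 and Sox17, are themselves genes with distal sites. Thy1, of the fibroblast list, did not rise with the sum. It was at 11.1, 11.9 and 10.0 FPKM over +/+, +/N and N/N, and at 5.81 and 2.85 over shLuc and shTbx3. Thy1 was thus most of the fibroblast sum in shLuc. Postn and Lox, of the same list, are listed at 0 in shLuc, and Krt8 and Krt18, at 167 and 140.2 FPKM, made up most of the trophectoderm sum in shTbx3. Their part in the differences of genes with distal sites was not tested, and fewer cells of a type cannot be told apart from less RNA per cell.

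Among the genes with a distal site that were lower in N/N, Sema5b, a semaphorin with an intronic site of 54.5, was at 9.51 FPKM in +/+ and 1.21 FPKM in N/N (log2 difference -2.25). Tcf15, a bHLH factor linked to priming for differentiation, was at 136, 43.8 and 34.5 FPKM across +/+, +/N and N/N (-1.95), but at 49.4 and 83.2 FPKM in shLuc and shTbx3. Igsf21 (-1.89), Hopx (-1.65), Inhbb (-1.62), Cobl (-1.61), Crtac1 (-1.57) and Basp1 (-1.53) followed, in order of size. In each of these 8 genes the +/N level lay between those of +/+ and N/N. The 8 were picked for the difference between +/+ and N/N, and the share of all genes with this order was not counted. The highest site score was 302 at Inhbb, 115 at Cobl, 102 at Basp1 and 95.6 at Igsf21. It was between 54.5 and 72.9 at the others, beside a median of 78.8 over distal sites.

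Genes higher in N/N were next to strong sites in some cases and to weak ones in others, such as Spag9 (60.4) and Pdpn (50.8). Over all genes with a site of 200 or more, 3 were higher and 4 lower in N/N. Myb, a transcription factor of blood progenitors and other dividing cells, had a site of 512 at 58.4 kb and was at 1.94, 3.98 and 5.71 FPKM in +/+, +/N and N/N (1.19). Ndrg1, a stress-induced gene with a site of 302, was at 20.2, 42.2 and 48.1 FPKM (1.21), and Ddit4, a stress-induced inhibitor of mTOR signalling, was at 110, 208 and 272 FPKM (1.30). Gjb1 (1.37), Slc28a1 (1.25), Spag9 (1.22) and Pdpn (1.13) were also among the 8 with the largest difference. Myb, Ndrg1, Ddit4 and Spag9 were lower, by less than 2-fold, in shTbx3 than in shLuc.

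In the hairpin pair T (log2 difference 4.51) and Sp5 (3.96) led the genes higher in shTbx3, followed by Igfbp3, a binding protein of insulin-like growth factors, at 9.08 FPKM in shLuc and 111 FPKM in shTbx3 (3.47). Igfbp3 was between 9.24 and 9.94 FPKM in the genotype series, and its site, of score 196, was 209 kb away. Gbp2 (2.53), Wnt3 (2.46), Amotl2 (2.33), Irs2 (2.24) and Thbs1 (2.03) came next. Lower in shTbx3 were Inhbb (-1.40), Otx2 (-1.31), Tbx3 (-1.28), Crtac1 (-1.17), Mreg (-1.11), Cmklr1 (-1.06), Alox5ap (-1.01) and Cd97 (-1.0).

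The 2 comparisons share no library, and 11 genes with a distal site differed by 2-fold or more in both. These are 1.05% of the 1050 genes compared in both, beside 0.462% (50) of the 10829 expressed coding genes. In 8 of the 11 the direction was the same, as it was in 34 of the 50, and 1 of the 8 is Tbx3 itself, the gene that was targeted. Of the 8, Tbx3, Inhbb, Crtac1 and Cmklr1 were lower, and Gjb1, Gja1 and Thbs1 higher, in the libraries with less Tbx3 RNA. Gja1, a gap junction protein like Gjb1, was at 26.3, 56.2 and 57.3 FPKM in the genotype series and 21.3 and 43.9 FPKM in the hairpin pair. For Myc, Gbx2 and 6430527G18Rik the directions were opposite.

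**Figure D5:**
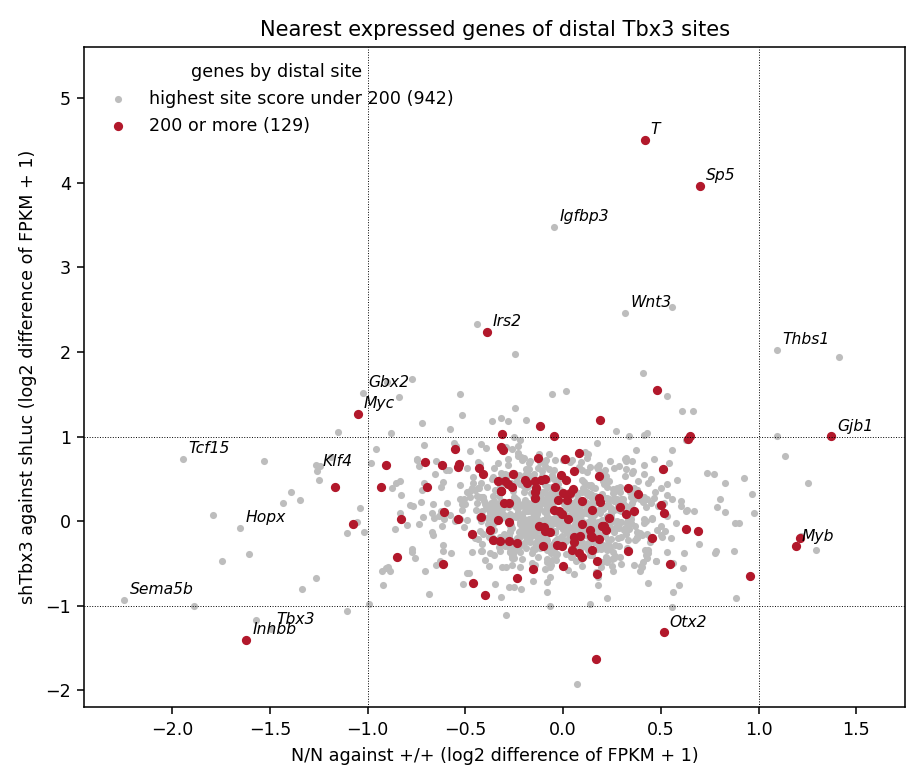
Log2 difference of FPKM + 1 in shTbx3 against shLuc (vertical axis) and in N/N against +/+ (horizontal axis) for the 1071 genes with a distal site, with genes next to a site of score 200 or more in red and dotted lines at 2-fold. Most genes lie between the lines, T and Sp5 are high in the hairpin pair alone, and Inhbb and Tbx3 are lower in both.

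The medians moved little with site strength, while the counts past 2-fold did. Genes with a site of 200 or more had a median of -0.04 in N/N against +/+ (127 genes), with 3 higher (2.36%) and 4 lower (3.15%). In shTbx3 against shLuc their median was 0.13 (128 genes), with 11 higher (8.59%) and 3 lower (2.34%). The share higher in shTbx3 was thus 2.69% over all genes, 4.15% over genes with a distal site, 5.82% over those with a site of 100 or more and 8.59% at 200 or more. For genes lower in N/N the shares in the same order were 1.4%, 2.92%, 3.83% and 3.15%. The 78 genes with 3 or more distal sites had a median of -0.14 in N/N against +/+, with 0 higher and 6 lower (7.69%). The shTbx3 shares include T (site of 219) and Wnt3 (52), which counted as expressed through that library alone. Sp5 (268) and Gjb1 (210) reached 1 FPKM in the genotype series too. Within the hairpin pair they did so only in shTbx3, and were at 0.740 and 0.396 FPKM in shLuc. The higher level of these genes in shTbx3 follows from the filter, which was the same for all genes. T, Sp5 and Gjb1 count at every step of that series, and Wnt3 among the 4.15% but not at 100 or more. Further genes that passed the filter in this way were not counted, so the rise of the series cannot be read apart from it. All these counts are small and come from single libraries.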

How the data were processed

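Tbx3 sites were used from the 1 deposited list, in which the authors gave each site a score on mm9; the notes name HOMER and Bowtie 1.0, per the submitters' processing notes, but the tool behind the score, the read depth and any use of the control are not given there or in the labels. The deposited RNA values are FPKM; for bulk libraries the submitters' processing notes list TopHat with Cufflinks and Cuffdiff, and for single cells Cuffnorm in their place; read lengths were 26 or 100 bases, per the labels, and FPKM shows neither depth nor counting error.

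Sites were placed with Python 3.11.15 and pandas 2.3.3 on the GENCODE annotation of the same build, by midpoint for introns and exons and by edge for distances, and written 1-based. Of 11647 gene names in the RNA table, 98.1% matched the annotation. Differences used a pseudocount of 1, a minimum of 1 FPKM and a limit of 2-fold; with 1 library per group no p-value was computed. The steps were tested on simulated data. The genome used marks no repeats, so repeat content was not computed.

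The members and gene lists were chosen with earlier results of these data known. Genes were named by a rule: the 12 sites of highest score, 5 clusters with most sites, 5 farthest sites, up to 4 genes per list, 5 genes with most sites, and the 8 largest differences each way at 5 FPKM or more; not all are named, some genes are not reported here, and list members given by name alone, Fgfr2 and Gja1 were added after their values were seen. Alternatives changed the distance limit, type of start, score minimum, cluster gap, window, pseudocount, filter, scaling and fold.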

Additional observations from a re-analysis of the deposited data

Results flagged for a closer look

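For 3 genes with a distal site the comparisons went opposite ways, each by 2-fold or more, and the difference between the comparisons was not tested. Myc had a log2 difference of -1.05 in N/N against +/+ and of 1.27 in shTbx3 against shLuc. Gbx2, a naive pluripotency gene with an intronic site of score 58.5, had -1.03 and 1.51, from 12 to 5.41 FPKM in the genotype pair and from 7.91 to 24.4 FPKM in the hairpin pair. The gene 6430527G18Rik, with a site of score 106, had -1.15 and 1.06.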

How the results depend on the processing

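The count of 1467 distal sites was 814 with a limit of 50 kb, 797 with scores of 75 or more and 521 with 100 or more; the median score in those last 2 sets was 118 and 151 by their construction. The share in introns was 39.9% with coding genes alone and 33.2% over 20 kb from every coding transcript start, an alternative chosen after seeing the data, as was the limit of 100 kb below. The share in clusters was 11.9%, 18.2% and 26.2% with gaps of 5, 20 and 50 kb, and 11.8% and 7.68% with scores of 75 and 100 or more, where fewer sites are left to join. The T-box core was in 8.52% of 200 bp windows and in 16.1% of sites of score 100 or more.

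Counts of genes by 2-fold moved with the pseudocount and fold. Higher in N/N were 18 (pseudocount 0.1), 2 (pseudocount 5), 43 (1.5-fold) and 5 (scores of 100 or more), and lower were 51, 14, 98 and 17. The higher ones were 1.7%, 0.189%, 4.06% and 1.13%, beside 1.87%, 0.283%, 4.88% and 0.977% of all genes. The lower ones were 4.81%, 1.32%, 9.25% and 3.83%, beside 2.58%, 0.457%, 5.82% and 1.4% of all. Higher in shTbx3 were 19 (pseudocount 5), 143 (1.5-fold) and 26 (scores of 100 or more). The shares were 1.79%, 13.5% and 5.82%, beside 0.866%, 12.6% and 2.69% of all genes, so the excess was small at 1.5-fold. Lower in shTbx3 were 20, 2, 48 and 5 in the 4 settings given for N/N. Those were 1.89%, 0.189%, 4.52% and 1.12%, beside 1.74%, 0.164%, 3.49% and 0.857% of all. With the median difference, 0.16 over genes at 5 FPKM or more, set to 0, 19 were lower (1.79%, and 1.37% of all). Higher were then 31 of the genes with a distal site (2.92%) and 1.83% of all. In every setting run the share lower in N/N was above that over all genes, at 1.32% against 0.457% with pseudocount 5 and 3.46% against 1.4% within 100 kb of the expressed start. Of the other results by setting 31 stayed close, and for the named genes 82 values kept their call, 14 were no longer past 2-fold and 0 changed sign.

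No paired analysis was possible because each group has 1 library and no replicate number. Leaving out a replicate was not possible either. Site scores come without counts, and depth is unknown.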

Other observations

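Single R1 cells sorted for the surface antigen SSEA1 give another view of the neighbours of distal sites. Their FPKM values were scaled apart from the bulk libraries, so only the number of 45 cells at 1 FPKM or more is given, and a cell below that may have lost the RNA in preparation. Sall4 and Jarid2 reached it in 45 cells, Etv5 in 40, Sox2 in 35, Mycn in 28, Esrrb in 27 and Klf4 in 26. Tbx3 reached it in 13, Otx2 and Myc in 6 each and Eomes in 1, and T, Sp5, Wnt3 and Dab2 in 0 of 45. Among genes with many distal sites, Med13l and Qk reached it in 42 cells each and Arhgap21 and Tbl1xr1 in 7 each.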
